A study of Mus musculus with 2 samples.

Results

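Amino acid transporters of erythroid cells were described as a set of 10 genes, listed by symbol: Slc43a1, Slc7a5 and Slc3a2 for large neutral amino acids, Slc1a5, Slc38a1, Slc38a2 and Slc38a5 for glutamine and other small neutral amino acids, Slc6a9 for glycine, Slc7a1 for cationic amino acids and Slc7a11 for cystine. All 10 were found in the gene tables, among 42462 gene rows matched to a symbol. The RNA came from erythroblasts, red cell precursors that still have a nucleus, taken as primary cells from adult male mice of the C57BL/6J strain aged 5 to 6 weeks. A protocol title in the labels names isolation of progenitors from bone marrow. Total RNA was sequenced in 2 libraries of 1 group, each from 1 ng of input with spike-ins added. There was no treatment, no mutant and no other cell type, so no comparison of conditions could be made, and the values below are levels with their spread over the libraries. Both are labelled as biological replicates, each with its own biosample, but they refer to the same donor record. Nothing in the labels says that separate animals were used, so the spread may be technical.

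Erythroblasts build hemoglobin in large amounts and take up amino acids for both of its parts. Glycine is a substrate of Alas2, the erythroid enzyme that starts heme synthesis, and leucine and other essential amino acids enter globin chains. Several transporters of the Slc7 family, known as light chains, reach the cell surface when paired with the heavy chain encoded by Slc3a2, among them Slc7a5 and Slc7a11. Others work alone: Slc1a5 exchanges neutral amino acids with sodium, Slc38 members bring in glutamine and related amino acids with sodium, and Slc43a1 carries large neutral amino acids down their gradient.

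The libraries held 80806663 and 117032607 expected counts (estimated reads per gene), of which nuclear protein-coding genes took 5.44% and 5.82%. Levels are therefore given as rescaled TPM: the deposited TPM, an abundance per transcript length, multiplied so that nuclear protein-coding genes sum to 1000000 in each library. Globin genes took 43.8% and 43.5% of that sum. A gene was called detected at a rescaled TPM of at least 1 in both libraries. Of the markers of other cells, all 15 for neutrophils were detected, with summed rescaled TPM of 45266 and 47660. The 11 erythroid markers, all detected, summed to 450280 and 446857, nearly all of it from globin genes. By mean level, erythroid markers other than globins ran from 5562 and 5083 for Slc4a1 to 60.5 and 61.4 for Klf1. Neutrophil markers ran from 14200 and 16292 for S100a9 to 22.9 and 30.2 for Cebpe. The sums therefore do not give the shares of the cell types. Monocyte and macrophage markers were detected for 12 of 12 genes and summed to 4596 and 4895, mast cell and basophil markers for 4 of 4 (569 and 509), megakaryocyte markers for 5 of 5 (85.5 and 111), T and NK markers for 2 of 6 (116 and 134, with Cd3d and Cd8a at 0) and B lineage markers for 1 of 7 (12.6 and 17.5, Ebf1 and Vpreb1 among those at 0). The part of these other cells in the levels below was not tested, and in bulk RNA fewer cells of a type cannot be told apart from less RNA per cell.

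All 10 transporters were detected, beside 42.9% of the 21461 nuclear protein-coding genes. At a threshold of 5, 9 of the 10 passed, beside 31.1%. Their median was 111 rescaled TPM in replicate 1 and 84.9 in replicate 2, against 0.642 and 0.392 for all nuclear protein-coding genes and 14.5 and 14.5 for the detected ones. Members were chosen with earlier results of these data known, so their detection and median level were partly set by that choice. The set was uneven. Slc43a1 made up 39.8% and 40.1% of its summed level and Slc1a5 made up 32.2% and 34.7%. Behind the set stood 19224 and 26670 expected counts, from 7628 and 10525 for Slc43a1 to 50.01 and 83.1 for Slc7a11.

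**Figure D1:**
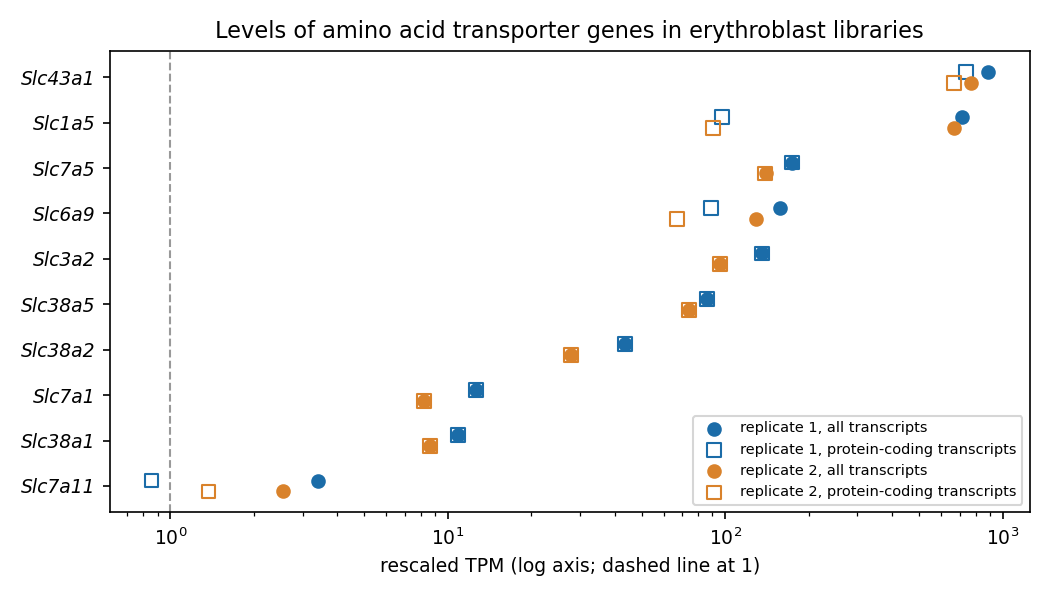
Rescaled TPM (log axis) of the 10 transporter genes in replicate 1 (blue) and replicate 2 (orange), over all transcripts (filled circles) and over protein-coding transcripts only (open squares). Slc43a1 and Slc1a5 lie above all others over all transcripts, while over coding transcripts Slc1a5 lies at 97.5 and 90.6.

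In the order of mean level, Slc43a1 was followed by Slc1a5, Slc7a5, Slc6a9, Slc3a2, Slc38a5, Slc38a2, Slc7a1, Slc38a1 and Slc7a11. The ranges of neighbours overlapped for Slc7a5 and Slc6a9, for Slc6a9 and Slc3a2, and for Slc7a1 and Slc38a1. Only the last pair changed places between the libraries, with Slc7a1 1.16 times Slc38a1 in replicate 1 and 0.955 times in replicate 2. The largest step was from Slc1a5 to Slc7a5, 4.10 times in replicate 1 and 4.77 times in replicate 2.

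Among the carriers of large neutral amino acids, Slc43a1 was the highest member of the set. It encodes LAT3, a facilitative carrier of leucine and its relatives that has been linked to hemoglobin production in mouse erythroid cells. Slc43a1 (ENSMUSG00000027075, chromosome 2, 84838850 to 84863594 on the plus strand, GRCm38/mm10) stood at 886 rescaled TPM in replicate 1 and 772 in replicate 2, a mean of 829 ± 80.5 (SD, n = 2). That placed it at rank 106 of the nuclear protein-coding genes, between ribosomal protein genes: Rpl26 and Rpl23a came just above at means of 833 and 829.5, and the lipid phosphatase gene Lpin2 and Rpl19 just below at 813 and 811. Its relative Slc43a2, which encodes LAT4, stood at 11.8 and 7.26, so that Slc43a1 was 75.3 and 106 times higher.

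Most of the Slc43a1 level was assigned to transcript Slc43a1-203, with 64.5% of the gene's TPM in replicate 1 and 78.1% in replicate 2. Slc43a1-201 held 15.4% and 6.61%, and Slc43a1-205, a transcript annotated with a retained intron, 16.5% and 13.1%. Slc43a1-205 keeps intron 13, of 1212 bases. The first 2 of these differ in how their coding region begins. Slc43a1-203 starts at base 84840625 of chromosome 2, within an intron of Slc43a1-201, and its annotated coding region has 26 codons ahead of the start codon that Slc43a1-202 uses at 84840852. Slc43a1-201 has 43 other codons there. The first coding bases of both are shown because they tell these coding transcripts apart. Capitals mark the coding bases before the exon they share, and the lower case is the first 30 bases of that exon (chr2:84840774-84840868 for Slc43a1-203, chr2:84839566-84840868 spliced for Slc43a1-201, plus strand, sequences from GENCODE M21).
Slc43a1-203 start: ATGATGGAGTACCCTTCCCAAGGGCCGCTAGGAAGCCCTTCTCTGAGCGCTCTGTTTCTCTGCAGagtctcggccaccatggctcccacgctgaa
Slc43a1-201 start: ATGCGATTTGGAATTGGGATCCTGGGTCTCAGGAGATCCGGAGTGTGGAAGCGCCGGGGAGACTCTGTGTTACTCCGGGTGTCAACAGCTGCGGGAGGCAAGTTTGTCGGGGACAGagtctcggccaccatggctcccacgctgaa

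Expected counts for Slc43a1-203 were 4518 and 7618, against 1104 and 659 for Slc43a1-201. The share of Slc43a1-201 was thus lower in replicate 2. No other Slc43a1 transcript held over 2.20% in either library.

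Slc7a5 and Slc3a2 encode the light and heavy chains of LAT1, the exchanger that brings in leucine and other large neutral amino acids, often against glutamine. Slc7a5 (ENSMUSG00000040010, chromosome 8, 121881150 to 121907694, minus strand) stood at 175 and 140.2 rescaled TPM, a mean of 157 ± 24.2 (SD, n = 2). Slc3a2 (ENSMUSG00000010095, chromosome 19, 8706882 to 8723369, minus strand) stood at 136 and 95.7, a mean of 116 ± 28.7 (SD, n = 2). Both were higher in replicate 1, and Slc7a5 exceeded Slc3a2 in each library, by 1.28 and 1.47 times.

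The 6 listed light chains that pair with Slc3a2 (Slc7a5, Slc7a6, Slc7a7, Slc7a8, Slc7a10 and Slc7a11) summed to 191 and 161 rescaled TPM. That was 1.40 and 1.68 times the level of the heavy chain, a log2 ratio of 0.49 in replicate 1 and 0.75 in replicate 2 (mean 0.62 ± 0.18, SD, n = 2). Slc7a5 made up 0.913 and 0.872 of the light chain sum. Slc7a8, the light chain of the related carrier LAT2, stood at 8.13 and 11.2, so that Slc7a5 was 21.5 and 12.5 times higher. Slc7a6 and Slc7a7, whose proteins export cationic amino acids in exchange for neutral ones, stood at 2.57 and 3.92 and at 2.57 and 2.94. Slc7a10 had 0 counts in both libraries. These are RNA levels, and the amount of paired protein was not measured.

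Slc3a2 reads were all assigned to transcript Slc3a2-201 and none to Slc3a2-202, which begins further upstream. For Slc7a5, Slc7a5-201 held 100% and 99.4%. The length of Slc3a2-201 was 2572 bases in the tables and 1819 in the annotation used for names, so the level per length of Slc3a2 depends on the older model.

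Among the glutamine carriers, Slc1a5 was the highest over all transcripts. It encodes ASCT2, a sodium-dependent exchanger of glutamine, serine, alanine and other neutral amino acids. Slc1a5 (ENSMUSG00000001918, chromosome 7, 16781340 to 16798274, plus strand) stood at 716 and 669 rescaled TPM, a mean of 692 ± 33.4 (SD, n = 2), and at rank 133. Slc43a1 exceeded it by 1.24 and 1.15 times, a log2 ratio of 0.31 and 0.21 (mean 0.26 ± 0.07, SD, n = 2), and their ranges did not overlap.

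Most of the Slc1a5 level, however, was not assigned to its protein-coding transcript. Slc1a5-202, annotated as a transcript with a retained intron, held 71.6% of the gene's TPM in replicate 1 and 72.5% in replicate 2 (mean 72.0 ± 0.629, SD, n = 2), with 4606 and 6956 expected counts. The coding transcript Slc1a5-201 held 13.6% in each library, with 856 and 1269 counts. Of the shorter transcripts, Slc1a5-206, also with a retained intron, held 6.01% and 7.62%. All transcripts annotated with a retained intron together held 85.2% and 86.4% of the Slc1a5 level. Among 9210 detected protein-coding genes, 339 (3.68%) had at least 50% of their level in such transcripts in both libraries, and 64, Slc1a5 included, had at least as large a share as Slc1a5 in both. The median share was 0.

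The annotated models of Slc1a5-202 and Slc1a5-201 share their other introns and differ in a single short one. It is intron 7 of 8, at chr7:16795953-16796023, and spans 71 bases, the shortest of the 8 introns of Slc1a5-201, where the others range from 477 to 3709 bases. Besides it, Slc1a5-201 has 28 bases more at its 5′ end. These structures are those of M21, where Slc1a5-201 has 2764 bases, while the model quantified in the tables had 2741, so its ends may have differed. Counting only the transcripts that span this intron, the share that keeps it was 84.0% and 84.2% of their TPM (mean 84.1 ± 0.164, SD, n = 2). The sequence around it is shown because the split of the Slc1a5 estimate rests on it. Both lines cover chr7:16795923-16796053 on the plus strand (GRCm38/mm10, sequences from GENCODE M21), with 30 exon bases on each side and the kept intron in capitals.
Slc1a5 spliced: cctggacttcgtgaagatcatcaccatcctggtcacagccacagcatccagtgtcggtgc
Slc1a5 intron kept: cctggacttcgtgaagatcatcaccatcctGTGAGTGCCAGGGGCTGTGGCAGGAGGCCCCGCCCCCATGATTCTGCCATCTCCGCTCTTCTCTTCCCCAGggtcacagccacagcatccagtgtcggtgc

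The intron begins with GT and ends with AG, the usual splice signals, and 66.2% of its bases are G or C. Its length is not a multiple of 3. Read on in the frame of Slc1a5-201, which has 555 codons, the kept intron brings a TGA stop codon that begins at its base 2, after 432 codons. That stop ends 202 bases before the last exon junction. Only reads over this intron, over its splice junction or at the 5′ end can tell the 2 models apart, and the authors' estimate shares out all others.

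**Figure D2:**
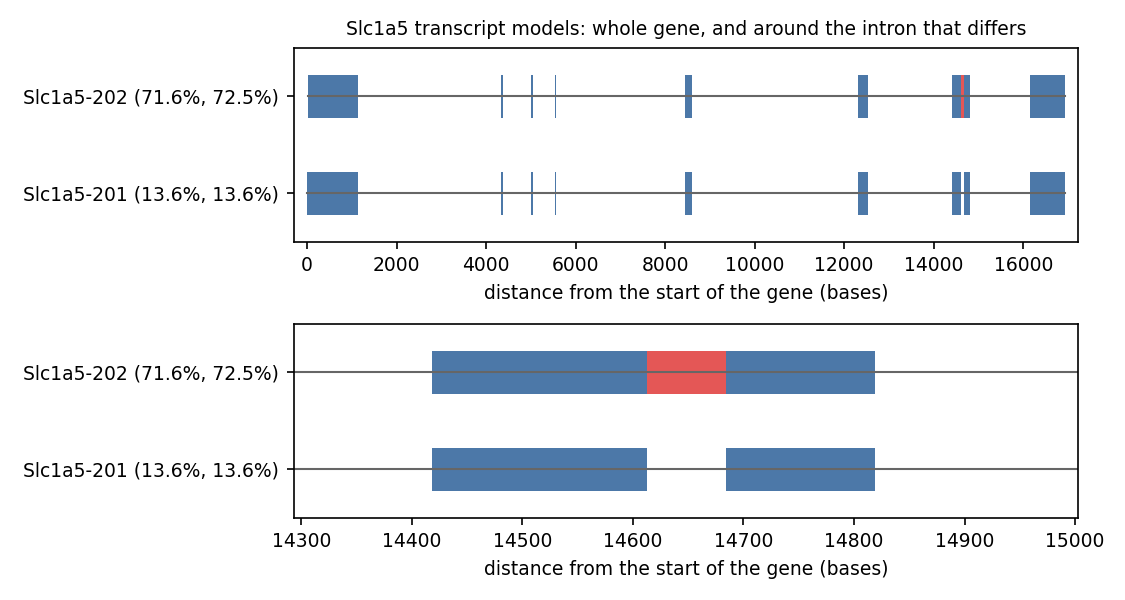
Exons (boxes) of the Slc1a5 models Slc1a5-202 and Slc1a5-201 along the gene, with the distance from its start in bases, and an enlarged view below. The percentages are the shares of the gene's TPM in replicates 1 and 2, and the red box is the 71-base intron that Slc1a5-202 keeps.

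The other glutamine carriers were lower over all transcripts, while over coding transcripts Slc1a5, at 97.5 and 90.6, was close to the next, Slc38a5. Slc38a5 encodes SNAT5, which carries glutamine, asparagine, histidine, serine and glycine with sodium against protons. Slc38a5 (ENSMUSG00000031170, chromosome X, 8271133 to 8280179, plus strand) stood at 85.8 and 74.1 rescaled TPM, a mean of 79.9 ± 8.22 (SD, n = 2). Slc38a2 encodes SNAT2, a carrier of small neutral amino acids known to be induced when amino acids are short. Slc38a2 (ENSMUSG00000022462, chromosome 15, 96687392 to 96699730, minus strand) stood at 43.6 and 27.8, a mean of 35.7 ± 11.2 (SD, n = 2). Slc38a1, which encodes the related carrier SNAT1 and lies beside Slc38a2 on chromosome 15 (ENSMUSG00000023169, 96571418 to 96642913, minus strand), stood at 10.9 and 8.63, a mean of 9.77 ± 1.61 (SD, n = 2).

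The order Slc38a5, Slc38a2, Slc38a1 was the same in both libraries and no ranges overlapped. Slc38a5 was 1.97 and 2.66 times Slc38a2, and Slc38a2 was 4 and 3.23 times Slc38a1. The relatives Slc38a3 and Slc38a4 had 0 counts in both libraries. Slc38a5-201 held 97.7% and 99.7% of the Slc38a5 level, and the single transcript of Slc38a2 held all of its level. For Slc38a1, Slc38a1-202 held 86.9% in replicate 1 and 54.9% in replicate 2, with the rest on Slc38a1-203. In the annotation used for names these models differ at both ends and have 6966 and 3183 bases. As quantified they had 7059 and 7752 bases, so where the quantified models differ is not known here.

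Slc6a9 encodes GlyT1, the sodium- and chloride-dependent glycine transporter of the plasma membrane, which mice are known to need for normal heme synthesis in red cell precursors. Slc6a9 (ENSMUSG00000028542, chromosome 4, 117834506 to 117875198, plus strand) stood at 157 and 129 rescaled TPM, a mean of 143 ± 19.8 (SD, n = 2), with 1062 and 1706 expected counts. The gene shares 1429 exon bases with Ccdc24 on the opposite strand, which stood at 56.0 and 54.3, and 46 with B4galt2 (0.214 and 0.981). Whether reads were counted by strand is not given in the sources used here. Expected counts of Slc6a9 (1062.07 and 1706.47) and Ccdc24 (673.93 and 1128.53) were fractional and add up to a whole number in each library. Some reads were thus shared out between these genes by estimate, and how many is not given. The level and transcript shares of Slc6a9 rest partly on that split.

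Glycine next enters mitochondria, and Slc25a38, the carrier of the inner membrane known for this step, stood at 181 in replicate 1 and 81.4 in replicate 2. The log2 ratio of Slc6a9 to Slc25a38 was -0.20 in replicate 1 and 0.67 in replicate 2 (mean 0.23 ± 0.62, SD, n = 2). The libraries thus differed in which of the genes was higher, and no order is given. Alas2 stood at 3747 and 3589, which was 23.8 and 27.7 times Slc6a9.

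Of the 10 listed genes of glycine supply and early heme synthesis, 9 were detected, beside 42.9% of nuclear protein-coding genes. Alas1, the form of the enzyme used in other tissues, stood at 55.4 and 54.9. Genes that make serine and glycine were below Slc6a9: Shmt2, the mitochondrial enzyme that turns serine into glycine, stood at 16.3 and 17.3, and the cytosolic Shmt1 at 5.77 and 2.35. In the serine pathway, Phgdh stood at 11.8 and 9.61, Psat1 at 10.1 and 33.3 and Psph at 10.3 and 10.2. Of the glycine cleavage system, Gcsh stood at 10.1 and 19.4 and Gldc had 0 counts in both libraries.

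The Slc6a9 level was spread over several transcripts. Slc6a9-202, a coding transcript, held 49.5% and 52.0%, with 790 and 1090 counts. Slc6a9-207, annotated as a target of nonsense-mediated decay, held 12.01% and 30.6%, with 172 and 574 counts. The non-coding Slc6a9-206, of 488 bases, held 24.7% and 16.6%, from only 46.2 and 39.2 counts. Slc6a9-204 and Slc6a9-205 held 6.22% and 6.96% in replicate 1, from 34.9 and 8.68 counts, and 0% in replicate 2. These shares are per transcript length, so short models reach a large share from few reads. Over coding transcripts alone the level of Slc6a9 was 88.7 and 67.3.

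Slc6a9 has alternative first coding exons. The models that hold the upstream start exon (5 of them, 10 codons at 117843106 to 117843135) carried 86.8% and 99.2% of the Slc6a9 level, Slc6a9-206 and Slc6a9-207 included, and the 3 annotated as coding among them carried 50.1% and 52.0%. The 3 models with the downstream start exon, all coding, (15 codons at 117849422 to 117849466) held 6.25% in replicate 1, from 34.9 counts, and 0% in replicate 2. The start sequences are shown because they are what separates these forms. Capitals mark the coding bases of the first coding exon and lower case the next 30 bases, which both share (chr4:117843106-117855904 and chr4:117849422-117855904, both spliced, plus strand, sequences from GENCODE M21).
Slc6a9 upstream start: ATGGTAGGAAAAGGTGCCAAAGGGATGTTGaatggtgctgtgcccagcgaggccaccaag
Slc6a9 downstream start: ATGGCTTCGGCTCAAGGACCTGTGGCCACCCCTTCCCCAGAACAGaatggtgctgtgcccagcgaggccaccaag

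Slc7a1 encodes CAT1, the carrier of arginine, lysine and ornithine whose loss in mice is known to cause severe anemia. Slc7a1 (ENSMUSG00000041313, chromosome 5, 148327410 to 148399904, minus strand) stood at 12.6 and 8.24 rescaled TPM, a mean of 10.4 ± 3.10 (SD, n = 2), from 301 and 316 counts. All of its level was on Slc7a1-201. It was at rank 5654, close to Slc38a1. Of the other carriers of the same kind, Slc7a3 had 0 counts in both libraries and Slc7a2 had 7 and 0 counts.

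Slc7a11 encodes xCT, the light chain that exchanges cystine for glutamate and so supplies cysteine for glutathione. Slc7a11 (ENSMUSG00000027737, chromosome 3, 49892526 to 50443614, minus strand) was the lowest member, at 3.42 and 2.55 rescaled TPM, a mean of 2.99 ± 0.617 (SD, n = 2), from 50.01 and 83.1 counts. Of these counts, 27.5 and 65.1 were assigned to the coding transcript Slc7a11-201, of 9223 bases. The rest lay mainly on Slc7a11-204, a model of 1 exon annotated as a retained intron, which held 70.0% of the level in replicate 1 and 49.8% in replicate 2, against 25.7% and 50.2% for Slc7a11-201. Over coding transcripts Slc7a11 stood at 0.855 and 1.37, under the detection threshold in replicate 1. At this depth, and by a share per transcript length, the leading transcript of Slc7a11 was not fixed. By counts Slc7a11-201 led in both libraries, as Slc7a11-204, of 2677 bases, had 21.0 and 18 counts.

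Of 9 listed glutathione genes, 6 were detected, beside 42.9% of nuclear protein-coding genes, and several were far above Slc7a11. The subunits of the enzyme that starts glutathione synthesis stood at 332 and 293 for Gclm, the modifier, and 88.5 and 87.9 for Gclc, the catalytic subunit. Glutathione reductase Gsr stood at 138 and 150.03, and Chac2, which breaks glutathione down, at 218 and 179. Gss, the second enzyme of synthesis, stood at 10.7 and 12.2 and Ggt1, which handles extracellular glutathione, at 3.64 and 1.37. Genes that make cysteine from methionine were not detected: Cth had 2 and 0 counts and Cbs had 0 in both libraries. Chac1 had 0 and 6 counts.

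Across the set, 8 of the 9 members with several annotated transcripts had the same leading transcript in both libraries, beside 66.5% of 6761 detected genes with several transcripts. The exception was Slc7a11. The leading transcript was one with a retained intron in both libraries for 1 member, Slc1a5, beside 4.76% of those genes. A single coding transcript held over 95% of the level in each library for Slc7a1, Slc7a5, Slc3a2, Slc38a2 and Slc38a5. Slc38a2 has only 1 annotated transcript and Slc3a2 has 2, and the share of all genes that pass was not computed. Taking coding transcripts alone, Slc43a1 stayed first at 739.5 and 670.3 rescaled TPM, but Slc1a5, at 97.5 and 90.6, came after Slc7a5 and Slc3a2. Slc6a9, at 88.7 and 67.3, was above Slc38a5 (85.8 and 74.1) in replicate 1 and below it in replicate 2. Levels over coding transcripts were computed after the transcript shares had been seen.

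**Figure D3:**
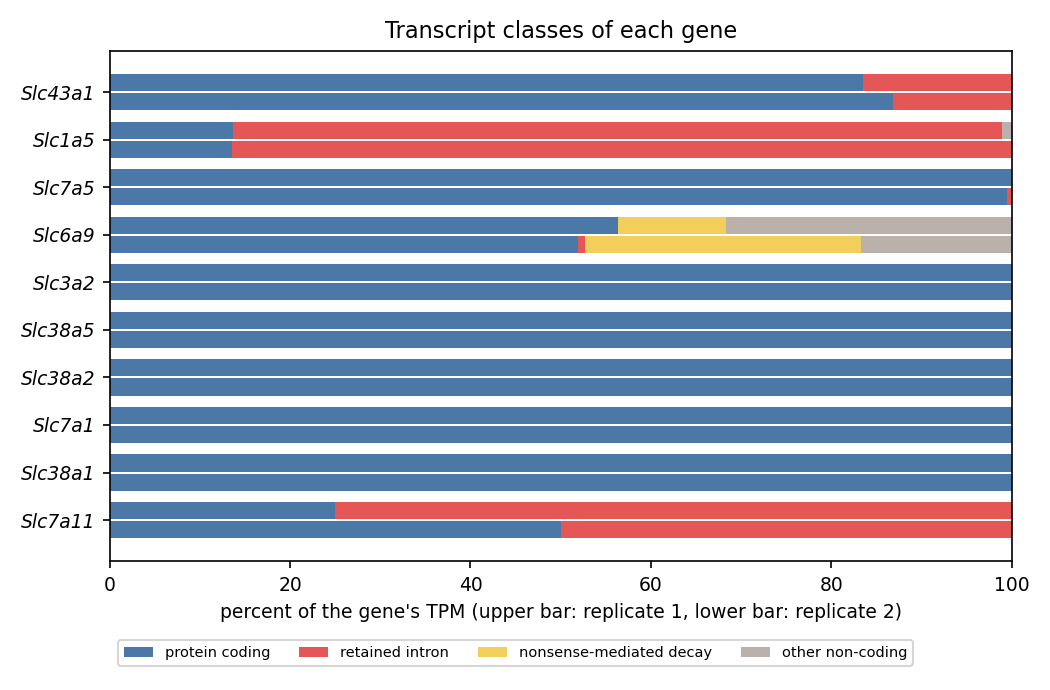
Percent of each gene's TPM assigned to transcripts annotated as protein coding, with a retained intron, as targets of nonsense-mediated decay or as other non-coding, with replicate 1 in the upper bar and replicate 2 in the lower. Retained-intron transcripts took 85.2% and 86.4% of Slc1a5, while Slc3a2, Slc7a1, Slc38a1, Slc38a2 and Slc38a5 were wholly coding.

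Among 33 other listed amino acid transporters of the plasma membrane, 9 were detected and 18 had 0 counts in both libraries. Of the 21461 nuclear protein-coding genes, 42.9% were detected and 8845 had 0 counts in both. The number of the 33 detected was 2 by the deposited TPM and 18 by the deposited posterior mean TPM, without a share of all genes computed for these. A count of 0 allows up to 3 counts, which for these genes came to a median of 0.422 rescaled TPM in replicate 1 and 0.265 in replicate 2, and at most 1.11 and 0.708 (counting error only). Members and lists were chosen with earlier results of these data known, so shares between them were partly set by that choice. The 10 members held 84.0% and 82.0% of the summed level of members and other listed genes (mean 83.0 ± 1.40, SD, n = 2). Most of the remainder was Slc16a10, which encodes TAT1, a carrier of aromatic amino acids. Slc16a10 stood at 328 and 338 rescaled TPM, a mean of 333 ± 7.27 (SD, n = 2), between Slc1a5 and Slc7a5, and held 12.4% and 14.4% of the sum.

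The next was Slc6a20a, a carrier of proline and related imino acids, at 43.8 and 42.4. Slc6a6, the taurine transporter, stood at 15.4 and 6.28. Slc36a4 and Slc36a1, of a family that also acts on lysosomes, stood at 5.13 and 7.84 and at 4.70 and 2.55. Slc1a3, a glutamate transporter best known in brain, came below the threshold at 0.855 and 0.392, from 12 and 7 counts.

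**Figure D4:**
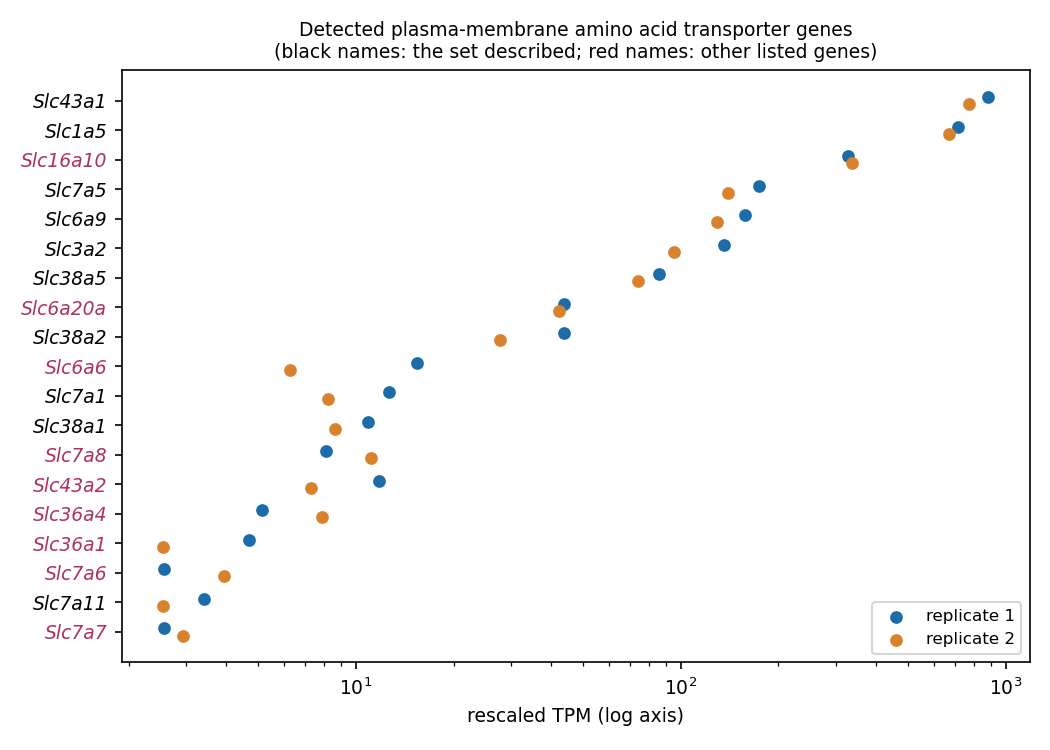
Rescaled TPM (log axis) of the detected plasma-membrane amino acid transporter genes in replicate 1 (blue) and replicate 2 (orange), with the 10 members named in black and the 9 other listed genes in red. Slc16a10, at 328 and 338, lies between Slc1a5 and Slc7a5.

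By counts scaled with TMM, 0 of the 9 members with a mean of at least 100 counts lay over 2 times apart, beside 7.54% of 5780 such genes (2.27% higher in replicate 1 and 5.28% higher in replicate 2), and Slc7a11, below that mean, did not either. No p-value can be given for 1 library against another. Slc1a5 had a log2 ratio of replicate 1 over replicate 2 of 0.01 and Slc43a1 of 0.14, beside a median absolute ratio of 0.10 for 208 genes of 3000 to 10000 counts. The largest were 0.57 for Slc38a2 and 0.53 for Slc7a1, beside 0.26 for 1863 genes of 300 to 1000 counts, and 0.44 for Slc3a2, beside 0.16 for 566 genes of 1000 to 3000 counts. Slc3a2 thus lay just above the 90th percentile of its count range, which was 0.43. Slc7a5 had 0.25, also above the median of that range. In all, 5 members (Slc43a1, Slc7a5, Slc3a2, Slc38a2 and Slc7a1) lay above the median of their range and 5 did not, among them Slc38a1 at 0.21 and Slc38a5 at 0.14.

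Of the 10 members, 8 were higher in replicate 1 by TMM-scaled counts, beside 44.8% of the 5780 genes, with a median log2 ratio of 0.18 against -0.05. By rescaled TPM all 10 were higher in replicate 1, by 1.07 to 1.57 times, beside 50.5%, with a median of 0.33 against 0.01. The members that turned round were Slc6a9, at -0.08 by counts and 1.22 times higher in replicate 1 by rescaled TPM, and Slc7a11, at -0.12 by counts and 1.34 times higher. For both, the assignment to short and long transcripts differed between the libraries, as given above; the part of this in the change of direction was not tested.

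**Figure D5:**
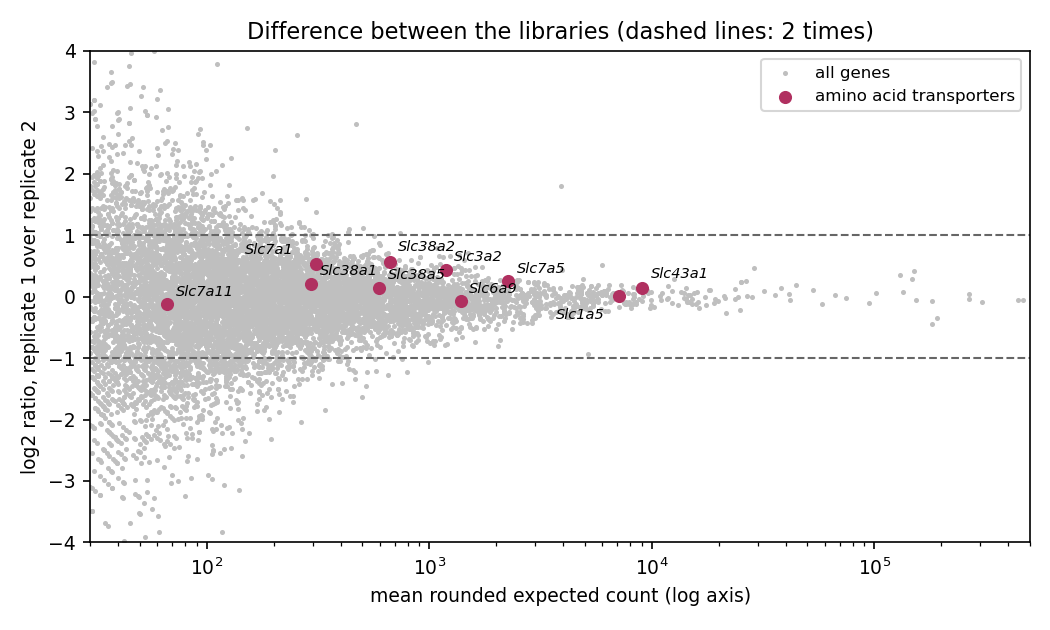
Log2 ratio of replicate 1 over replicate 2 (TMM-scaled counts) against the mean rounded expected count (log axis) for all genes (grey) and the 10 members (red), with dashed lines at 2 times. All 10 members lie within the lines, from -0.12 for Slc7a11 to 0.57 for Slc38a2.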

How the data were processed

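Total RNA-seq of mouse erythroblasts was analysed in 2 libraries of 1 group. Per the deposited read-me, genes and transcripts were quantified by the authors on mm10 with GENCODE M4. Which aligner and quantifier they used is not given in the sources used here. Expected counts, as deposited, share out reads that match several features, and were whole (within 0.005) in both libraries for 8 of the 10 members. The deposited TPM was scaled by the authors over all rows. The deposited FPKM and the posterior mean TPM, a score per the file headers, served as alternatives. The percent of a gene's TPM per transcript was also deposited by the authors.

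TPM was multiplied by 21.4 in replicate 1 and 19.6 in replicate 2, so that 21461 nuclear protein-coding genes sum to 1000000. A step of 0.01 in the deposited TPM then equals 0.214 and 0.196. Symbols, gene structures and sequences came from GENCODE M21 on the same build, matched by Ensembl identifier for 42462 of 43346 rows. Of 46 member transcripts, 41 had the same length in the tables and in M21. No genome sequence was used. Library ratios used rounded expected counts with edgeR 4.0.16 (TMM, prior count 2) and DESeq2 1.42.0 size factors as an alternative, in R 4.3.3. The ratio step was tested on simulated data. Other work used Python 3.11.15. No test between conditions was possible.

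The text names all members with their transcripts of at least 5% in either library, the 10 highest other transporters, the genes of the other lists, some of which are not reported here, and the 2 genes on each side of the highest member. The listed symbol Samtor was not matched and was not analysed here. With 1 group, no likeness of pattern could be computed. Members and lists were chosen with earlier results of these data known.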

Additional observations from a re-analysis of the deposited data

How the results depend on the processing

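Leaving out each library in turn gave a log2 ratio of Slc6a9 to Slc25a38 of -0.20 to 0.67, of Slc43a1 to Slc1a5 of 0.21 to 0.31 and of light chains to Slc3a2 of 0.49 to 0.75. It gave a share of the members among all listed transporters of 82.0% to 84.0%, and 9 to 10 other transporters detected. The ratio of Slc6a9 to Slc25a38 changed sign without replicate 2. With protein-coding transcripts only, an alternative chosen after seeing the data, the highest member was followed by Slc7a5 at a log2 ratio of 2.18, in place of Slc1a5 at 0.26, and the members' share was 75.3%. With posterior mean TPM the share was 81.4% and 18 other transporters were detected, and with deposited TPM 2 were, in place of 9. Members detected were 7 with deposited TPM, 9 at a threshold of 5, 9 with coding transcripts only and 10 under the other alternatives run. The ratios and the share cannot move under the deposited TPM or a rescaling without globins, which change all genes alike. No paired analysis was possible because the design holds 1 group. Transcript shares varied most between the libraries for Slc38a1-202 and Slc38a1-203 (SD 22.6 percentage points each), and Slc7a11 rests on under 100 counts per library.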

Other observations

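Genes that sense amino acids or act on their shortage or related stress were measured beside the transporters, in rescaled TPM (replicate 1, then replicate 2). Of 16 matched genes of amino acid sensing, by mTORC1 and its partners or by the kinase Eif2ak4, 13 were detected, beside 42.9% of nuclear protein-coding genes. Sesn1, of the family of leucine sensors, was highest at 160.2 and 170.4, followed by the GATOR1 subunit Nprl3, whose gene lies beside the alpha globin genes, at 68.9 and 63.9. The lysosomal anchor Lamtor1 stood at 36.8 and 32.4, Lamtor2 at 8.77 and 4.31, the Rag GTPases Rraga at 15.6 and 16.3, Rragc at 21.2 and 6.86 and Rragd at 7.27 and 3.92. Mtor itself stood at 5.56 and 4.71 and its partner Rptor at 4.49 and 12.6. Depdc5 stood at 5.13 and 18.4, Sesn2 at 4.70 and 3.73, Sesn3 at 1.07 and 3.53, the kinase Eif2ak4 at 3.21 and 7.45 and Nprl2 at 4.49 and 0.784. Of the arginine sensors, Castor1 had 0 counts in both libraries and Castor2 had 0 and 57 counts. The lysosomal arginine carrier Slc38a9 stood at 53.9 and 49.8, the highest of 8 listed intracellular amino acid transporters, of which 5 were detected.

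Of 9 listed genes of the response to amino acid shortage and related stress, 7 were detected, beside the same 42.9%. Eif2ak1, the heme-regulated kinase of erythroid cells, stood at 423 and 348, the transcription factor Atf4 at 110.1 and 86.9 and its known target Asns, which makes asparagine, at 80.4 and 76.7. Ddit3 stood at 36.4 and 49.2, Nupr1 at 12.2 and 10.6, Cebpb at 9.20 and 9.02 and Atf5 at 1.92 and 1.37, while Ddit4 stood at 1.71 and 0.196 and Trib3 at 1.07 and 0.

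Of 11 genes that use arginine, glutamine or branched-chain amino acids, 8 were detected, again beside 42.9% of nuclear protein-coding genes. Odc1, which turns ornithine into polyamine precursors, stood at 422 and 401, and Glul, which makes glutamine, at 132 and 124. Glud1 stood at 66.5 and 38.0. Got2 stood at 38.7 and 25.9, Got1 at 4.70 and 6.86, Bcat2 at 3.42 and 3.33 and Arg2 at 2.35 and 0.784. Arg1 and Bcat1 had 0 counts in both libraries. No test was possible for any of these levels.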
